A study of Arabidopsis thaliana with 6 samples.

Results

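Trehalose phosphate synthase genes were examined in root meristems of Arabidopsis thaliana: TPS1, which belongs to class I of the family, and TPS5 to TPS11, which make up class II. These 8 genes were taken by locus identifier from a deposited table of 32678 genes, and all 8 were present and passed the filter on low counts. Counts of sequenced reads per gene came from 3 libraries of wild type (label Col0, the common laboratory accession) and 3 of the double mutant papl1-1papl2(cog1-6cdf4), which carries the papl1-1 (also cog1-6) and papl2 (also cdf4) alleles of 2 genes for Dof zinc finger transcription factors. Seedlings of both genotypes were 5 days old and had grown at 23 °C in long days on medium with 0.5-strength salts and 1% sucrose, so both groups received sugar from outside. Meristems were dissected by hand, and the replicates sequenced were the best of each genotype in quality control. The labels do not say whether replicates came from separate plates or days, so the p-values below measure the spread between these libraries, which may in part be technical.

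Trehalose 6-phosphate is made from UDP-glucose and glucose 6-phosphate by the synthases, is turned into trehalose by phosphatases, and trehalose is split into glucose by trehalase. In plants it is present in trace amounts, follows the level of sucrose and inhibits the SnRK1 protein kinase, the regulator that adapts metabolism to low energy. TPS1 is the main active synthase and is needed for embryo maturation and flowering, whereas the class II proteins carry a synthase-like and a phosphatase-like domain with little known enzyme activity and are regarded as regulatory. TPS8 to TPS11 are known as genes that sugar represses and starvation induces.

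Gene structure separated the classes. In the RefSeq annotation of TAIR10.1 the longest coding sequence of TPS1 (AT1G78580, chromosome 1, 29552340 to 29560912) was spread over 17 exons, as in the other class I genes TPS2, TPS3 and TPS4, and that of each class II gene over 3 exons. Coding sequences of TPS1 and the class II genes were 45.5% to 47.5% identical in nucleotides over aligned bases. Within class II, TPS8 (AT1G70290, chromosome 1, 26470795 to 26474833) and TPS9 (AT1G23870, chromosome 1, 8432179 to 8435656) were the closest pair at 80.7%, and TPS10 (AT1G60140, chromosome 1, 22176934 to 22181740) was 71.5% identical to each of them. TPS11 (AT2G18700, chromosome 2, 8108898 to 8112010) was 60.6% to 62.2% identical to TPS8, TPS9 and TPS10. It therefore stood no closer to those 3 genes than TPS5 (AT4G17770, chromosome 4, 9876172 to 9880386), TPS6 (AT1G68020, chromosome 1, 25496928 to 25500584) and TPS7 (AT1G06410, chromosome 1, 1954674 to 1958866) did, at 61.9% to 64.5%. No stretch of 50 bases in the exons of the 8 genes recurred elsewhere in the genome. TPS1 overlaps 2 genes on the opposite strand. They are RHM1, with 4174 to 11016 counts per library, by 99 bases, and AT1G09827, which is not among the counted genes, by 429 bases. TPS5 and TPS6 each overlap 1 gene on the opposite strand. The counts of TPS1, TPS5 and TPS6 are uncertain to that extent because the use of strand is not given in the sources used here. TPS7 to TPS11 overlap no annotated gene.

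The 250 bases before the annotated gene start of TPS8 to TPS11 are shown because these 4 genes were the members called higher in the mutant, and because the mutated genes encode Dof factors, a family that binds DNA at the core AAAG. Sequences are from RefSeq TAIR10.1, 5′ to 3′ on the gene's strand, and capitals mark every AAAG or its reverse complement CTTT.
TPS8 (chromosome 1, minus strand, 26474834 to 26475083): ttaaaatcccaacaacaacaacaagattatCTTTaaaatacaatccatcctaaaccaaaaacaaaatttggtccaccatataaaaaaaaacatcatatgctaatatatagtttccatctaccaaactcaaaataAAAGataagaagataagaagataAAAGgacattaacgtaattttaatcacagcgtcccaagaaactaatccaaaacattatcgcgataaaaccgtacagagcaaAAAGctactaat
TPS9 (chromosome 1, plus strand, 8431929 to 8432178): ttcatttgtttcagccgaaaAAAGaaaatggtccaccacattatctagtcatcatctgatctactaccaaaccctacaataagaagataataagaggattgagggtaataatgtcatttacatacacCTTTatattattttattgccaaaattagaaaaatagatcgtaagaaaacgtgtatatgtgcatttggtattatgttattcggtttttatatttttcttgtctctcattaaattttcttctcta
TPS10 (chromosome 1, minus strand, 22181741 to 22181990): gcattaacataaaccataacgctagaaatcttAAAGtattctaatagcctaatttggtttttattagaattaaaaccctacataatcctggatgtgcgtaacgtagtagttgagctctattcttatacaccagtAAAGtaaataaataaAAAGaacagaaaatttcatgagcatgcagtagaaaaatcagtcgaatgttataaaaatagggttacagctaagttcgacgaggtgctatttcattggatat
TPS11 (chromosome 2, plus strand, 8108648 to 8108897): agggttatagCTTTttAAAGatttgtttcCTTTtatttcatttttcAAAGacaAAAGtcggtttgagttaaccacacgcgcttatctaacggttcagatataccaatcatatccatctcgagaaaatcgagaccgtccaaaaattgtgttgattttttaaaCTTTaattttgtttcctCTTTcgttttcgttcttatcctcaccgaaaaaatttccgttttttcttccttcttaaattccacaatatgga
The core occurred 4 times before TPS8, 2 times before TPS9, 3 times before TPS10 and 7 times before TPS11, and 6, 8, 2 and 6 times before TPS1, TPS5, TPS6 and TPS7. It was present in 98.0% of 27438 windows of the same length before protein-coding nuclear genes, with a median of 4 occurrences. The letters TATCCA, an element described in sugar-starved rice cells, searched on both strands, occurred in the windows of TPS6, TPS10 and TPS11 and in 13.6% of all windows. The letters ACGTG occurred in the windows of TPS6 and TPS9 and in 22.9% of all windows. In TPS6 they occurred 4 times, counting as 2 an overlap of both strands in the palindrome CACGTG. The letters ACTCAT occurred in the windows of TPS5 and TPS6 and in 12.3% of all windows. A match describes these letters in these windows only.

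Library totals ranged from 17849704 to 20914576 counts, and levels are given as CPM, counts scaled to a common library size with TMM factors (trimmed means of M-values). The 5 meristem markers fixed for the tissue had summed levels of 167 to 175 CPM in the wild type and 165 to 210 CPM in papl1 papl2. One of them, WOX5, had few reads, at 2, 9 and 15 counts in the wild type and 19, 12 and 17 in papl1 papl2. It reached the minimum level of the filter on low counts in only 1 wild-type library. The 2 leaf markers together stayed at 0.0953 to 0.526 CPM. The mutated loci, COG1 (AT1G29160) and CDF4 (AT2G34140), had higher counts in the libraries labelled as mutant, at 19.5 against 11.5 CPM and 5.99 against 4.02 CPM on average, so the direction of each difference rests on the labels. In the edgeR test described below COG1 passed (adjusted p = 0.0137), though not in 3 of 12 alternative fits, and CDF4 did not (adjusted p = 0.0952). Below, papl1 papl2 stands for the libraries labelled so, and wild type for those labelled Col0.

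TPS8 to TPS11 were all higher in papl1 papl2, by 1.58-fold to 3.15-fold, whereas none of TPS1, TPS5, TPS6 and TPS7 passed the test. Calls rest on the quasi-likelihood test of edgeR with a threshold of 0.05 on the p-value adjusted over 17720 genes (edgeR adjusted p), by which 2.76% of all genes changed, 2.23% upwards and 0.525% downwards in papl1 papl2. Against that background 4 of the 8 synthase genes were called higher and 0 lower. The median log2 fold change over the 8 genes was 0.60, beside 0.0032 over all tested genes. It was 0.99 over TPS8 to TPS11 and 0.0092 over the other 4. The 3 papl1 papl2 libraries lay entirely above or below the 3 wild-type libraries for 5 of the 8 genes, TPS6 and TPS8 to TPS11, against 21.5% of all tested genes (11.7% with papl1 papl2 above and 9.8% with it below). At an unadjusted p under 0.05 the same 5 genes passed, against 15.9% of all tested genes.

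**Figure D1:**
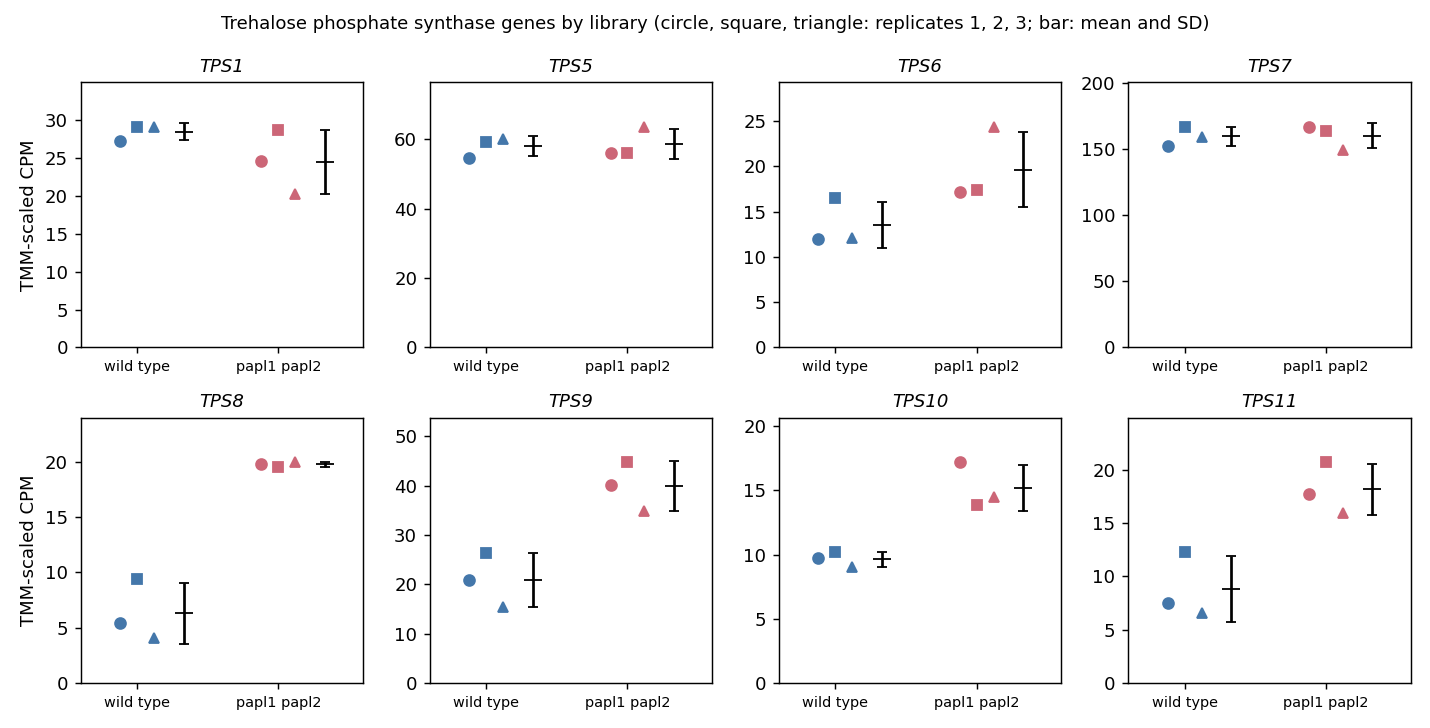
Levels of the 8 synthase genes in each library, in TMM-scaled CPM on axes that start at 0, for wild type (blue) and papl1 papl2 (red), with the mean and SD of 3 libraries beside them. The groups are apart for TPS6 and TPS8 to TPS11, and overlap for TPS1, TPS5 and TPS7.

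TPS8, a sugar-repressed class II gene, had the largest fold change of the family, whereas the difference in CPM was larger for TPS9. It was at 5.38, 9.42 and 4.05 CPM in wild-type replicates 1 to 3 and at 19.8, 19.5 and 20.0 CPM in papl1 papl2, from 85 to 190 and 352 to 414 counts. The wild-type libraries differed 2.33-fold among themselves and the papl1 papl2 libraries 1.02-fold, and the groups did not overlap. The log2 fold change was 1.65 (SE 0.24, edgeR adjusted p = 0.00878), a 3.15-fold rise.

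TPS9, the closest relative of TPS8, was at 20.9, 26.3 and 15.3 CPM in the wild type and at 40.2, 44.8 and 34.8 CPM in papl1 papl2. The lowest papl1 papl2 library was above the highest wild-type library. The log2 fold change was 0.94 (SE 0.17, edgeR adjusted p = 0.0239). These levels came from 322 to 840 counts per library.

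TPS10 was at 9.70, 10.2 and 9.05 CPM in the wild type and at 17.2, 13.9 and 14.5 CPM in papl1 papl2. Its wild-type libraries agreed within 1.13-fold, and all lay below the papl1 papl2 libraries. It had the smallest fold change of the 4, a log2 fold change of 0.66 (SE 0.11, edgeR adjusted p = 0.0176). With the replicate number as a block in the model, this call was lost at an edgeR adjusted p of 0.0529.

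TPS11, which is also known from defence against aphids, was at 7.54, 12.3 and 6.57 CPM in the wild type and at 17.8, 20.7 and 16.0 CPM in papl1 papl2. The groups were apart, with wild-type replicate 2 the nearest to the mutant. This gave a log2 fold change of 1.04 (SE 0.21, edgeR adjusted p = 0.0348). For each of TPS8 to TPS11, replicate 2 was the highest wild-type library and replicate 3 the lowest.

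TPS1, the active synthase, was at 27.1, 29.0 and 29.1 CPM in the wild type and at 24.6, 28.6 and 20.2 CPM in papl1 papl2. Replicate 3 of papl1 papl2 was the lowest library and replicate 2 lay within the wild-type range. The log2 fold change of -0.22 (SE 0.11, edgeR adjusted p = 0.407) did not pass. The other class I genes gave almost no reads: TPS2 and TPS3, neighbours on chromosome 1, had 0 counts in all 6 libraries, which allows up to 0.143 to 0.168 CPM per library at 3 counts, and TPS4 had 3 to 8 counts and was not tested.

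TPS5, a class II gene that binds 14-3-3 proteins when phosphorylated, was at 54.7, 59.3 and 60.2 CPM in the wild type and at 56.1, 56.2 and 63.7 CPM in papl1 papl2. Its log2 fold change was 0.015 (SE 0.071, edgeR adjusted p = 0.950). TPS7 was at 152, 167 and 159 CPM in the wild type and at 167, 164 and 149 CPM in papl1 papl2. The groups overlapped for both genes, and the log2 fold change of TPS7 was 0.0037 (SE 0.063, edgeR adjusted p = 0.985).

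TPS6, known from mutants with altered cell shape and branching, was at 12.015, 16.5 and 12.1 CPM in the wild type and at 17.2, 17.4 and 24.4 CPM in papl1 papl2. The groups did not overlap, though wild-type replicate 2 came close to papl1 papl2 replicates 1 and 2. The log2 fold change of 0.53 (SE 0.17, edgeR adjusted p = 0.161) did not pass, and it passed at 0.0481 in the DESeq2 Wald test.

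The calls of TPS8 to TPS11 depended on which libraries were included. Without wild-type replicate 1 none of the 8 genes passed, at edgeR adjusted p of 0.0736 for TPS8, 0.130 for TPS9, 0.0905 for TPS10 and 0.188 for TPS11. Without wild-type replicate 3 only TPS8 passed, and without papl1 papl2 replicate 2 only TPS8 and TPS10 did. Without papl1 papl2 replicate 1 the call of TPS11 was lost, at an edgeR adjusted p of 0.0592. All 4 calls held without wild-type replicate 2 and without papl1 papl2 replicate 3. The log2 fold changes of the 4 genes were positive in each of these 6 fits, at 1.41 to 2.07 for TPS8, 0.76 to 1.14 for TPS9, 0.56 to 0.72 for TPS10 and 0.87 to 1.36 for TPS11.

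**Figure D2:**
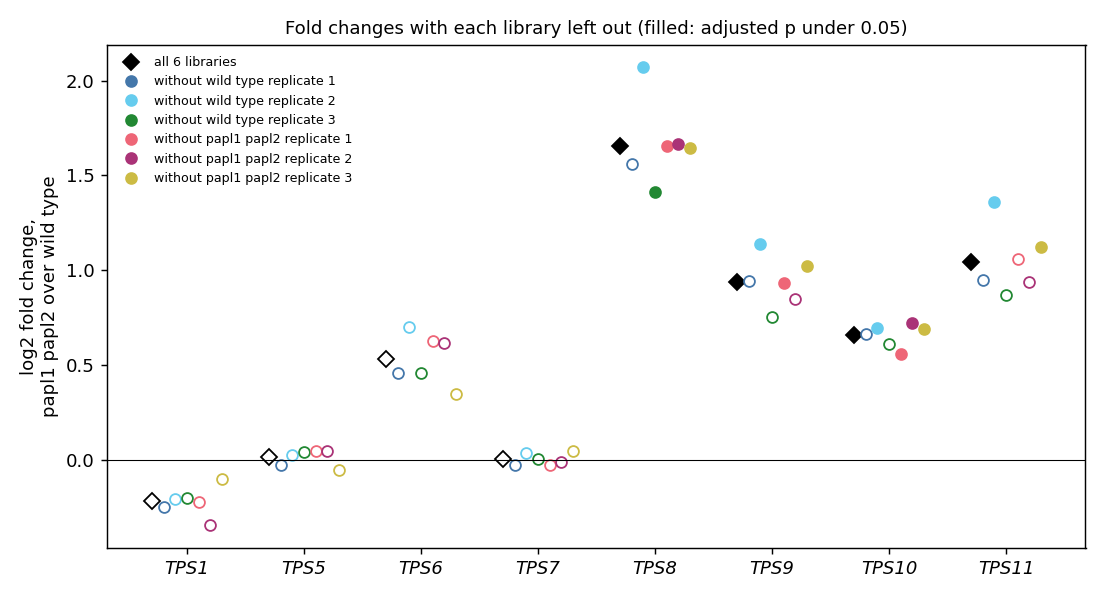
Log2 fold change of each synthase gene, papl1 papl2 over wild type, with all 6 libraries (diamonds) and with each library left out in turn (circles), filled where the edgeR adjusted p was under 0.05. TPS8 to TPS11 stay between 0.56 and 2.07, and without wild-type replicate 1 no symbol is filled.

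Levels were compared between the genes per kilobase of annotated exon (RPKM). TPS7 was the most abundant at 43.3 ± 2.01 RPKM in the wild type and 43.4 ± 2.56 RPKM in papl1 papl2 (SD, n = 3 for each), followed by TPS5 at 17.1 ± 0.863 and 17.2 ± 1.29 RPKM. Both were separate from the next gene in every library of each genotype. In the wild type the order went on with TPS9 at 7.02 ± 1.85, TPS1 at 5.32 ± 0.207, TPS6 at 3.80 ± 0.722, TPS11 at 2.99 ± 1.04, TPS10 at 2.21 ± 0.134 and TPS8 at 1.88 ± 0.836 RPKM. Of these neighbours only TPS1 and TPS6 did not overlap. In papl1 papl2 TPS9 at 13.4 ± 1.68 RPKM was separate from all genes below it, and TPS11 at 6.16 ± 0.817, TPS8 at 5.90 ± 0.0727, TPS6 at 5.51 ± 1.16, TPS1 at 4.58 ± 0.791 and TPS10 at 3.49 ± 0.409 RPKM each overlapped the next. TPS8 thus had the lowest mean of the family in the wild type and a level within the range of TPS6 and TPS11 in papl1 papl2.

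**Figure D3:**
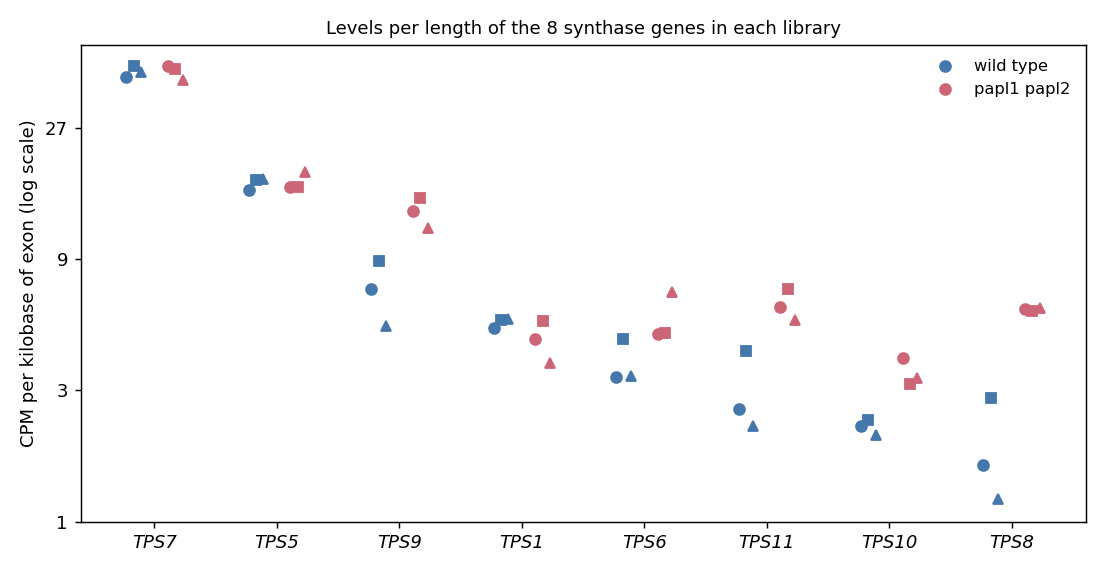
Level of each synthase gene in each library per kilobase of exon (RPKM, log axis), ordered by the wild-type mean, with circles, squares and triangles for replicates 1, 2 and 3 of wild type (blue) and papl1 papl2 (red). TPS7 and TPS5 lead in both genotypes, and TPS8 is lowest in the wild type at 1.88 RPKM and reaches 5.90 RPKM in papl1 papl2.

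TPS8 to TPS11 together held 16.9%, 20.0% and 13.3% of the summed RPKM of the 8 genes in wild-type replicates 1 to 3, and 29.2%, 30.4% and 27.5% in papl1 papl2. The summed RPKM of TPS5 to TPS7 was 60.8 to 67.4 in the wild type and 65.8 to 66.6 in papl1 papl2. The ratio of summed class II RPKM to that of TPS1 was 13.8 to 15.8 in the wild type and 18.1 to 24.5 in papl1 papl2. These sums are descriptions of the transcript pool and carry no test.

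Across the 6 libraries TPS8 to TPS11 varied together, with Pearson's r of log2 CPM between 0.88 and 0.98 for their 6 pairs. These values describe libraries that share the genotype difference, so they carry no p. TPS6 correlated with the 4 genes at 0.73 to 0.87, and TPS7 at 0.17 to 0.32. The values for TPS5 were -0.11 to 0.10. TPS1 was the member with negative values for all 4 genes, at -0.61 to -0.38.

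Genes outside the family with the most similar pattern over the 6 libraries were sought among 6288 genes with a symbol and a mean of at least 5 CPM. For TPS8 they were RCI2A (r = 0.99), the monosaccharide transporter gene STP4 (r = 0.99) and CYP705A21 (r = 0.98). For TPS9 they were UGT85A1 (r = 0.996), the seed-oil lipase gene SDP1 (r = 0.99) and PCK2, which encodes a phosphoenolpyruvate carboxykinase (r = 0.99). PCK2 was at 17.4 CPM in the wild type and 56.0 CPM in papl1 papl2 on average. For TPS10 they were the protein kinase gene CIPK21 (r = 0.99), the auxin efflux carrier gene EIR1 (r = 0.98) and HINT3 (r = 0.98). For TPS11 they were the amino acid transporter gene LHT1 (r = 0.997), PID2 (r = 0.99) and the sugar transporter gene ERD6 (r = 0.99). As the highest values among 6288 genes over 6 libraries, these r carry no p. PCK2 had the largest log2 fold change of these genes, at 1.69, and EIR1 the smallest, at 0.082 (edgeR adjusted p = 0.452). STP4, SDP1, PCK2, CIPK21, LHT1 and ERD6 were called higher in papl1 papl2, and the others were not called.

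The remaining enzymes of trehalose metabolism gave no called change. Of 10 trehalose 6-phosphate phosphatase genes and the trehalase gene TRE1, 5 were tested, 0 were called higher and 0 lower, and their median log2 fold change was 0.10. Of all tested genes 2.76% were called in either direction, and a count of 0 in so short a list does not set it apart from that share. At an unadjusted p under 0.05 the number was 0 too, against 15.9% of all tested genes, and DESeq2 called 0. TPPA, the gene of this list with the most counts, was at 31.7, 29.8 and 29.2 CPM in the wild type and at 32.0, 32.7 and 27.8 CPM in papl1 papl2. TRE1 was at a log2 fold change of 0.12 (SE 0.15, edgeR adjusted p = 0.771) and TPPI at one of -0.18 (SE 0.24, edgeR adjusted p = 0.788). TPPJ had 0 to 7 counts and was not tested, and TPPC, TPPE, TPPF, TPPG and TPPH were listed at 0 in all 6 libraries.

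Not every 0 in the table can be read as a gene without transcripts. For TPPF and TPPG the table also lists a neighbouring locus, AT4G12432 and AT4G22592, that the RefSeq annotation lacks and that is at 0 as well. The same holds for bZIP1, bZIP2, bZIP11, bZIP44 and bZIP53, the S1 group of bZIP factors. SAMDC (AT3G02470), an adenosylmethionine decarboxylase gene picked after the data were seen because it is known to be strongly expressed, was listed at 0 or 1 count. How reads over such pairs of loci were counted was not tested. TPS2, TPS3, TPPC, TPPE and TPPH are at 0 with no such neighbouring locus in the table. Conversely, the SnRK1 subunit gene KINBG and the root hair marker RHD6 have one at 0, AT1G09026 and AT1G66475. They themselves had 1505 to 2103 and 435 to 787 counts per library, so such a locus does not by itself mark an unreadable gene.

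SnRK1, the kinase that trehalose 6-phosphate inhibits, showed no called change in its subunit genes. All 7 were tested, 0 were called higher and 0 lower, beside 2.76% of all tested genes called in either direction. A count of 0 in so short a list does not set it apart from that share. The median log2 fold change was 0.088. The groups did not overlap for 3 of the 7, against 21.5% of all tested genes. KIN10 and KINB1 were higher in papl1 papl2 and KINBG was lower. At an unadjusted p under 0.05 the number was 2 of 7, against 15.9% of all tested genes, and DESeq2 called 0. The 2 genes were the beta subunit gene KINB1, at a log2 fold change of 0.26 (SE 0.073, edgeR adjusted p = 0.117), and the gamma subunit gene KING1, at 0.36 (SE 0.12, edgeR adjusted p = 0.185). The catalytic subunit genes KIN10 and KIN11 were at 79.7, 79.7 and 73.4 CPM and at 62.9, 69.2 and 53.3 CPM in the wild type. In papl1 papl2 KIN10 was at 85.2, 82.4 and 79.8 CPM and KIN11 at 66.8, 73.8 and 64.4 CPM.

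**Figure D4:**
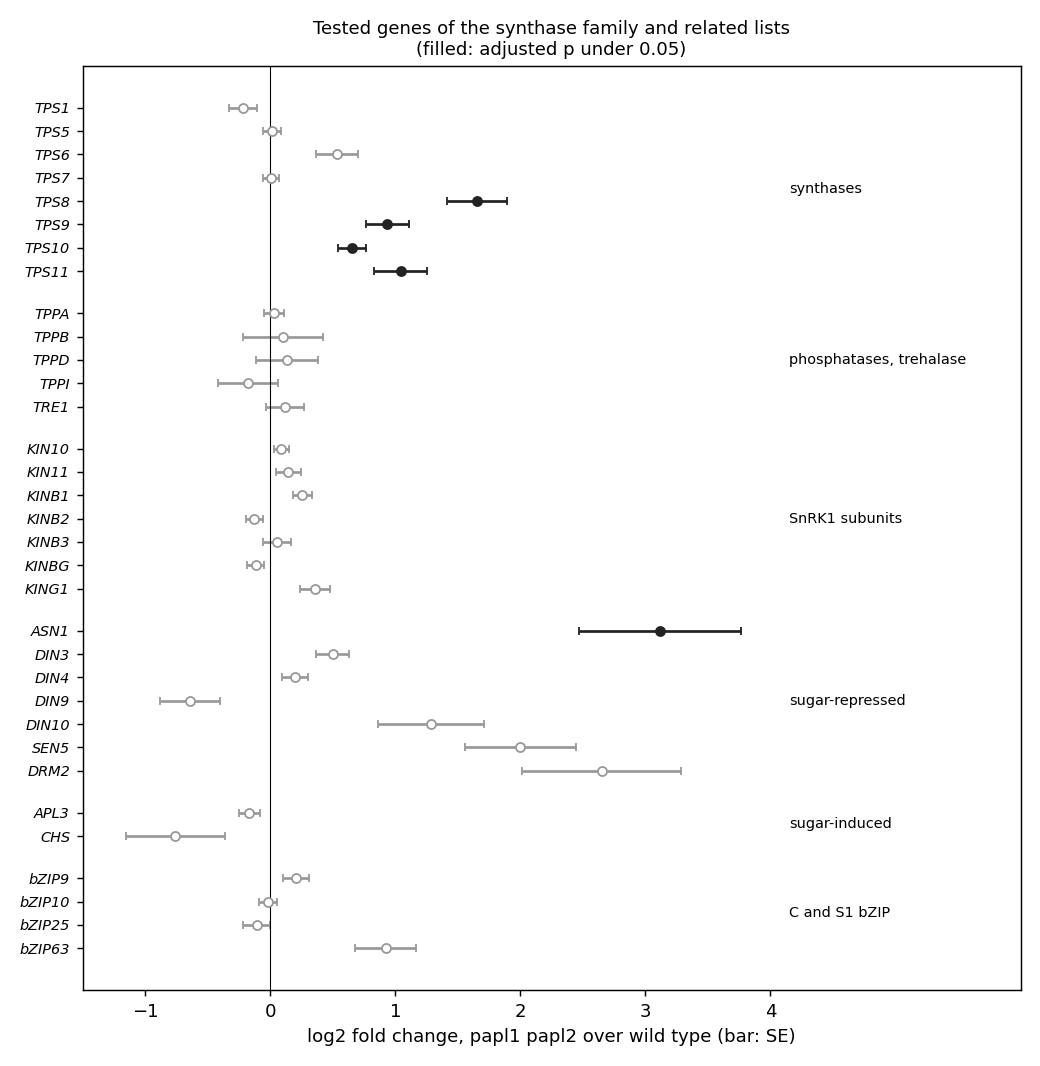
Log2 fold change with its SE, papl1 papl2 over wild type, of each tested gene in the synthase family and 5 related lists, filled where the edgeR adjusted p was under 0.05. TPS8 to TPS11 and ASN1 are the filled genes, and the phosphatase and SnRK1 genes lie between -0.18 and 0.36.

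Other genes known to be repressed by sugar and induced in the dark were set beside TPS8 to TPS11. Of 11 such genes 7 were tested, 1 was called higher and 0 lower, beside 2.23% and 0.525% of all tested genes. The median log2 fold change of the tested genes was 1.29, beside 0.0032 over all genes. ASN1, which encodes asparagine synthetase, was at 0.738, 1.04 and 0 CPM in the wild type and at 2.87, 5.05 and 7.54 CPM in papl1 papl2, from 0 to 21 and 60 to 135 counts. Its log2 fold change was 3.12 (SE 0.65, edgeR adjusted p = 0.0390), and that call was lost in 6 of 11 alternatives, at an adjusted p of up to 0.212 in the DESeq2 Wald test. It was lost when any 1 of the wild-type libraries or papl1 papl2 replicate 2 was left out, at edgeR adjusted p of 0.0591 to 0.182. SEN5 (AT3G15450) was at 87.0, 106 and 20.8 CPM in the wild type and at 242, 303 and 307 CPM in papl1 papl2. Its log2 fold change was 2.00 (SE 0.44), and the edgeR adjusted p of 0.05001 lay just above the threshold. It passed with upper-quartile factors, with no filter, without wild-type replicate 3, without papl1 papl2 replicate 3 and in the DESeq2 Wald test.

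DIN10, a raffinose synthase-like gene, was at 113, 174 and 36.1 CPM in the wild type and at 279, 296 and 214 CPM in papl1 papl2, and did not pass (edgeR adjusted p = 0.177). The gene listed here as DRM2 is locus AT2G33830, as the symbol alone is ambiguous. It was at 0.527, 1.49 and 0.0953 CPM in the wild type and at 3.73, 2.44 and 7.15 CPM in papl1 papl2, and did not pass either (edgeR adjusted p = 0.0669). DIN9 stood at a log2 fold change of -0.64 (SE 0.24) and was not called. Neither was DIN3, at 0.50 (SE 0.13, edgeR adjusted p = 0.0886), nor DIN4, at 0.20 (SE 0.10, edgeR adjusted p = 0.412). ASN1, SEN5, DIN10 and DRM2 had their highest wild-type value in replicate 2 and their lowest in replicate 3, as TPS8 to TPS11 did. DIN3 and DIN4 had this order too, whereas DIN9 was highest in replicate 3, at 4.16, 4.41 and 5.57 CPM in wild-type replicates 1 to 3. The order was not particular to sugar-repressed genes, as bZIP63, KIN11 and the root hair marker EXPA7 also had it. Its share over all genes was not counted. For 6 of the 7 tested genes the groups did not overlap, of which DIN9 alone was lower in papl1 papl2, against 21.5% of all tested genes (11.7% higher and 9.8% lower). ASN1 and DRM2 reached the minimum level of the filter in all 3 papl1 papl2 libraries but in only 2 of the wild type, so they were tested through the group in which they were high, and the median and counts of this list are a description only.

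Of 4 sugar-induced markers 2 were tested and 0 were called in either direction, beside 2.76% of all tested genes. The starch synthesis gene APL3 was at a log2 fold change of -0.17 (SE 0.087, edgeR adjusted p = 0.399), and CHS, the chalcone synthase gene of flavonoid synthesis, at one of -0.76 (SE 0.40, edgeR adjusted p = 0.398). At an unadjusted p under 0.05 the number was 0, against 15.9% of all tested genes, and DESeq2 called 0. Of 9 bZIP factors of groups C and S1, which act with SnRK1, 4 were tested and 0 were called in either direction, beside 2.76% of all tested genes. DESeq2 called 0 of them. At an unadjusted p under 0.05 the number was 1 of 4, against 15.9% of all tested genes. That gene, bZIP63, was at 16.2, 22.0 and 9.24 CPM in the wild type and at 29.2, 27.3 and 33.2 CPM in papl1 papl2, without overlap. Its log2 fold change was 0.92 (SE 0.24, edgeR adjusted p = 0.0915). For bZIP9 it was 0.20 (SE 0.10, edgeR adjusted p = 0.377).

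**Figure D5:**
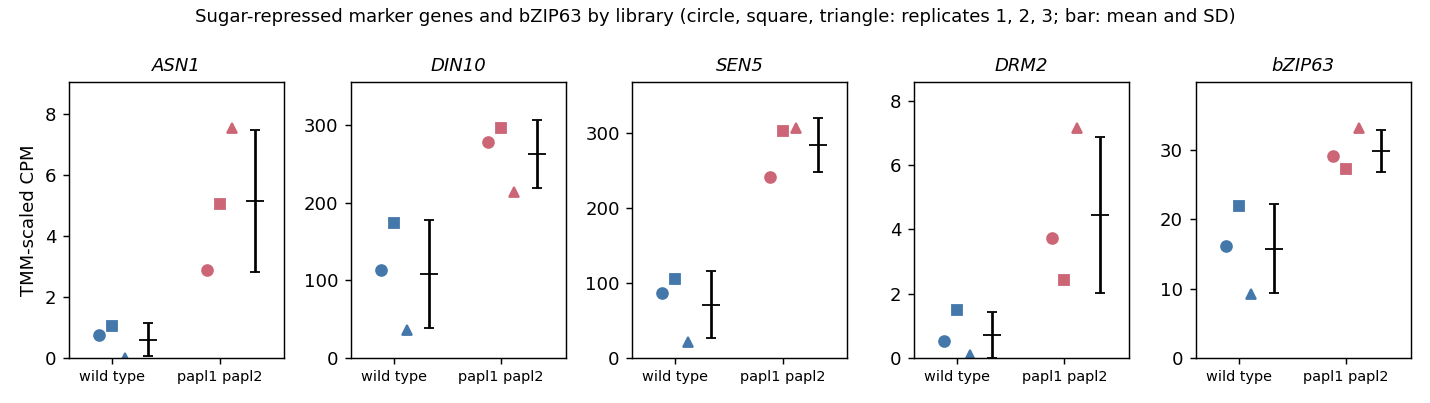
Levels of 4 sugar-repressed marker genes and of bZIP63 in each library, in TMM-scaled CPM on axes that start at 0, for wild type (blue) and papl1 papl2 (red), with the mean and SD of 3 libraries beside them. The 4 markers shown have the largest log2 fold changes of the tested sugar-repressed markers. Replicate 3 is the lowest wild-type library for each gene shown, and all papl1 papl2 libraries lie above all wild-type libraries. Of the markers not shown, DIN3 was higher in papl1 papl2 without overlap, DIN4 overlapped between the genotypes and DIN9 was lower.

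Of the markers of other cell types only MYB36 and SUC2 were called, both higher in papl1 papl2, where 2.23% of all tested genes were called higher. The 2 endodermis markers summed to 2.57 to 3.47 CPM in the wild type and 6.03 to 8.13 CPM in papl1 papl2, where MYB36 was called higher (2.21-fold, edgeR adjusted p = 0.00961) and CASP1 was at 0 to 0.574 CPM over the 6 libraries. The 4 phloem markers summed to 18.7 to 23.4 against 22.4 to 25.1 CPM, ranges that overlap, with 1 of them, SUC2, called higher. The others were not called and had no common direction. Their log2 fold changes were -0.22 for APL, 0.30 for CALS7 and 0.036 for CVP2. SUC2 had 5, 3 and 8 counts in the wild type and 18, 19 and 28 in papl1 papl2, and reached the minimum level of the filter in 0 wild-type libraries, so it was tested only through the group in which it was high. The call of MYB36 was lost without wild-type replicate 1 or 3, and that of SUC2 when any 1 of the wild-type libraries or papl1 papl2 replicate 2 was left out. The 7 root hair markers summed to 36.7 to 42.6 CPM in the wild type and to 49.8, 42.2 and 24.8 CPM in papl1 papl2 replicates 1 to 3, with no common direction. EXPA7 and EXPA18 were at 0 in replicate 3 of both genotypes, and PRP3 at 0 in wild-type replicate 1 and papl1 papl2 replicate 3. RSL4 was at 0.738, 0.595 and 0.429 CPM in the wild type and at 4.16, 3.22 and 0.279 CPM in papl1 papl2. Sums of 3 root cap markers were 69.1 to 74.0 against 54.8 to 70.5 CPM and of 3 xylem markers 7.64 to 10.002 against 5.08 to 13.5 CPM, with 0 called in either list. The part of these differences in the result for TPS8 to TPS11 was not tested, and in whole meristems more cells of a type and more RNA per cell cannot be told apart.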

How the data were processed

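Raw counts of reads per gene were deposited by the authors as 1 table with 1 column per library and no normalisation, judged from the values, which are whole numbers. The submitters' processing notes name TopHat2, HTSeq, DESeq and DESeq2 and the build TAIR10, with no role or version; the annotation and the use of strand are not given in the sources used here. Selection of polyadenylated RNA and PCR without molecular identifiers mean that floors of 3 counts cover counting error only. Columns were matched to sample titles, and 0 were left unmatched.

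In R 4.3.3, edgeR 4.0.16 was fitted to the 6 libraries (genotype alone in the model, filterByExpr defaults leaving 17720 genes, TMM scaling), with quasi-likelihood F tests and Benjamini-Hochberg adjustment over those genes. SE is the size of the log2 fold change over the square root of F. Correlations used log2 CPM with a prior count of 2. Alternatives were the DESeq2 1.42.0 Wald test, 2 other scalings, 2 other filters, a replicate block and each library left out. The fit was tested on a single simulated data set for each kind of spread. In these the share of false calls lay above the threshold of 0.05. It was higher when each gene kept its own estimated spread than when the spread followed its trend with the mean. How that share varies between simulated data sets is not given here. No library was a copy of another: within a genotype, the chi-square of counts divided by its degrees of freedom was 4.10 to 15.6. The 2 pairs with papl1 papl2 replicate 3 were at 9.31 and 15.6, and the other pairs at 4.10 to 5.27.

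Symbols and exon lengths are from RefSeq TAIR10.1, an update of TAIR10 whose nuclear chromosomes are taken to be the same, and 31912 of the identifiers matched it. RPKM used the union of annotated exons, which may differ from the authors' gene models. Members and lists were chosen with earlier results of these data known. Named were all members, TPS2 to TPS4, and, of each other list, the called genes and the 2 smallest p-values; further genes of the lists were added after their values were seen. As most alike, the 3 genes with the highest r for each called member are given.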

Additional observations from a re-analysis of the deposited data

How the results depend on the processing

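The number of changed genes was 489, against 744 with the DESeq2 Wald test and 144 to 1164 when single libraries were left out in 6 further fits, with the fewest without wild-type replicate 1 and the most without papl1 papl2 replicate 3. The number of synthase genes called was 4, and 0 to 4 across the same 6 fits. With the DESeq2 Wald test it was 5, as TPS6 passed at a log2 fold change of 0.53. In the 6 fits the log2 fold change was -0.34 to -0.10 for TPS1 and 0.35 to 0.70 for TPS6. Values near 0 changed sign: TPS7 was at -0.0021 with no filter, -0.00076 with DESeq2 size factors, -0.00069 with the DESeq2 Wald test and -0.029 to 0.048 across the 6 fits, and TPS5 at -0.052 to 0.047 across them. TPS8 passed in 11 of 12 alternatives, TPS9 and TPS10 in 9 and TPS11 in 8, all with positive log2 fold changes; TPS9 was 0.76 to 1.14, TPS10 0.56 to 0.72, TPS11 0.87 to 1.36 and TPS8 1.41 to 2.07 across the 6 fits. The number of sugar-repressed markers called was 1, against 3 with no filter, 0 among genes averaging 5 CPM or more, 2 with upper-quartile factors, 2 with the DESeq2 Wald test and 0 to 3 across the 6 fits. The bZIP number was 0, against 1 with no filter and 0 to 1 across the fits, and the SnRK1 number 0, against 0 to 1. For all of these the cause was not tested, beyond the smaller number of libraries or genes that an alternative has by construction.

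A replicate block in the model gave 259 called genes, 245 of them shared with the 489, and 0 called sugar-repressed markers. TPS10, at a log2 fold change of 0.65, then missed the threshold (edgeR adjusted p = 0.0529). TPS8, TPS9 and TPS11 passed in that fit, at edgeR adjusted p of 0.0207, 0.0123 and 0.0194. Over all tested genes, same-numbered libraries did not deviate together (mean correlation of deviations -0.0587), and no label says that a number marks a shared plate or day. Single genes could differ from that mean. TPS9 and TPS11 were highest in replicate 2 and lowest in replicate 3 of both genotypes, whereas TPS8 and TPS10 had this order in the wild type only. Genes with few counts, such as TPS4 and TPPJ, could not be compared at this depth.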
